A study of Mus musculus with 24 samples.

Results

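The genes described here encode the nuclear subunits of the mitochondrial respiratory chain and of ATP synthase. They were chosen by symbol alone, as every gene whose annotated symbol starts with Ndufa, Ndufb, Ndufc, Ndufs, Ndufv, Uqcr or Atp5, with Cox4, Cox5, Cox6, Cox7 or Cox8, or is Sdha, Sdhb, Sdhc or Sdhd. The rule found 90 genes, measured by 179 probe sets, of 18193 genes on the array. Complex I held 42 of them, complex II 4, complex III 8, complex IV 19 and ATP synthase (complex V) 17. The Ndufa prefix also caught 8 Ndufaf genes, which code for assembly factors of complex I rather than subunits. Subunits encoded in mitochondrial DNA were not analysed here.

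The cells were macrophages grown from bone marrow of C57Bl/6 mice for 10 days with 20 ng/ml M-CSF, the growth factor that drives macrophage differentiation. Marrow came from 3 Pparg+/- LysCre mice (mice 1 to 3) and 3 Pparg fl/- LysCre mice (mice 4 to 6). Every mouse therefore carried a null Pparg allele and the Cre recombinase driven from the lysozyme locus of myeloid cells, and the remaining allele was wild type in the first genotype and floxed in the second. A mouse here is the number that opens a sample title, a reading that the titles do not spell out. Each mouse so numbered gave 4 cultures, without or with 20 ng/ml IL-4, each with vehicle (DMSO and ethanol) or with 1 µM rosiglitazone (RSG). RSG is an agonist of the nuclear receptor PPARγ. This formed 8 groups of 3 arrays. RNA was measured on Affymetrix arrays, and the deposited value of a probe set is a ratio to its own median over the arrays. A ratio of 1 is thus the usual level of most probe sets here, with 82.2% of them at a median within 0.005 of 1. Some genes lie elsewhere, as Cox8b with medians of 0.517 without IL-4 and 0.599 with it. Levels cannot be compared between genes.

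Complex I takes electrons from NADH and complex II from succinate, both pass them through ubiquinone to complex III, cytochrome c carries them on to complex IV, and the proton gradient built on the way drives ATP synthase. Several complex IV subunits exist as a ubiquitous form and as a form restricted to muscle, testis or hypoxic tissue. IL-4 turns macrophages to alternative activation, a state known for its reliance on mitochondrial oxidation of fatty acids.

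Promoter windows of 250 bases before the annotated start were held in RefSeq (build GRCm38.p6) for 74 of the 90 genes. The letters GCGCA and GCGC with 1 base between them, the core of the site of nuclear respiratory factor 1 (NRF-1), a regulator of many respiratory genes, were found on either strand in 12 of these 74 genes (16.2%) and in 4.23% of all 27025 genes with a window. CCGGAAG, the core of an ETS site, was in 14 of 74 (18.9%) against 7.83% of all genes. AAGGTCA, the core of an estrogen-related receptor site, was in 5 (6.76% against 4.7%), and TTC and GAA with 4 bases between them, a spacing bound by STAT6, the IL-4-activated factor, were in 3 (4.05% against 6.76%). The TATA box TATAAA was in 7 (9.46% against 14.3%). The respiratory promoters held a median of 15 CpG dinucleotides and all promoters a median of 6, and the part of this base composition in the motif counts was not tested. The NRF-1 letters stood in 6 of the 37 genes with a window that rose with IL-4, in none of the 11 that fell and in 6 of the 26 that passed in neither direction. This split depended on the scaling. When each array was centred on its median gene, the rises of Ndufs5, Cox6a1 and Atp5c1, which hold these letters, no longer passed. Ndufa5 and Atp5k, which hold them too, then passed as lower. A match is a description of the letters and not a bound site.

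4 windows are shown because their genes carry results given below: Ndufaf4, Sdha and Atp5h rose with IL-4 and hold NRF-1 letters, and Cox7a1 fell and holds none of the 5 motifs. Capitals mark the motif letters, which are the NRF-1 core in each case except the ETS core CTTCCGG (reverse strand) near the start of Atp5h. In the Ndufaf4 window the NRF-1 letters began 113 bases before the start, in Atp5h 141 bases before it, and in Sdha at 98, 55 and 10 bases before it. The windows lie at chr4:24897833-24898082 (plus strand, Ndufaf4), chr13:74350241-74350490 (minus, Sdha), chr11:115419920-115420169 (minus, Atp5h) and chr7:30183921-30184170 (plus, Cox7a1), and each is written 5′ to 3′ in the direction of the gene.
Ndufaf4: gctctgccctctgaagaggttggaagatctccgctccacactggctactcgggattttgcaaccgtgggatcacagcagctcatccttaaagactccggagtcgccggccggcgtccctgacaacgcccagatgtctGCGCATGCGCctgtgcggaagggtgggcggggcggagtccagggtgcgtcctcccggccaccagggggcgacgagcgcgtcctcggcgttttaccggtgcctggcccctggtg
Sdha: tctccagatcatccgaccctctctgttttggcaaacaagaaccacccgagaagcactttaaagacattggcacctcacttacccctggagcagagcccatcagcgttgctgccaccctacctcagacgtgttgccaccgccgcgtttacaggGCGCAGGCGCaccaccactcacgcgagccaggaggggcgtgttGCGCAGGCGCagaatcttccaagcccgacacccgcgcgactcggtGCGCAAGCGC
Atp5h: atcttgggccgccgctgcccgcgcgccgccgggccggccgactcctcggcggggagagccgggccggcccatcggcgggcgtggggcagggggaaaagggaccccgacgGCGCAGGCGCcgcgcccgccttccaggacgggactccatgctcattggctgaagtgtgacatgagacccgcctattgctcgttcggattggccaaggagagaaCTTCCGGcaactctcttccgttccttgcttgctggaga
Cox7a1: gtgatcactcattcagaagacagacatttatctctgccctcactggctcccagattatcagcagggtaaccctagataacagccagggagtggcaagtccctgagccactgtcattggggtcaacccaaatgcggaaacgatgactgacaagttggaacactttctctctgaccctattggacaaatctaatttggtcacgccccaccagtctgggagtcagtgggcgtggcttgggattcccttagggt

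On these arrays the targeted gene did not report the deletion. The paper describes near complete recombination by PCR, and reports that RSG no longer induced Fabp4 in Pparg fl/- cells. Pparg ratios in the 12 Pparg fl/- arrays ran from 0.578 to 3.16 and in the 12 Pparg+/- arrays from 0.362 to 2.02, and over all cultures Pparg was 1.76-fold higher in Pparg fl/- cells (limma, adjusted p = 0.0018). Where its probe set lies relative to the floxed sequence is not analysed here. The median ratio of an array ran from 0.906 to 1.08, and among Pparg fl/- cultures with IL-4 and vehicle, mouse 4 stood apart with its median gene at -0.14 on the log2 scale, against 0.11 and 0.033 in mice 5 and 6. The 7 measured alternative activation genes all rose with IL-4 (Retnla 273-fold, Arg1 271-fold and Mgl2 196-fold). Whether macrophage markers are present cannot be read from ratios to a gene's own median, and no marker of any list was at the lowest value on all arrays.

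IL-4 raised many of the respiratory genes by small amounts. Over both genotypes and treatments (12 arrays with IL-4 against 12 without), 45 of 90 rose and 13 fell at an adjusted p under 0.05 (limma on log2 ratios, Benjamini-Hochberg over all 18193 genes), where 24.6% of all genes rose and 15.4% fell. With a change of at least 1.5-fold added, 3 rose (Cox6a2, Ndufa13 and Ndufaf4) and 3 fell (Cox6b2, Cox7a1 and Ndufa4l2), which is 3.33% in each direction against 10.4% and 9.24% of all genes. The median log2 change was 0.19 for the 90 genes and 0.13 for all genes, so the median respiratory gene stood 0.062 above the median gene, and 54 of 90 lay above it. When each array was centred on its median gene, 34 rose and 19 fell, and the share of risers among the called genes went from 77.6% to 64.2%. The 13 falls and 34 of the 45 rises held under that scaling. The 11 rises of Ndufa1, Ndufb11, Ndufs5, Cox6a1, Cox8a, Cox8c, Atp5c1, Atp5o, Atp5g1, Atp5g3 and Atp5l did not, while Ndufa5, Ndufb10, Ndufc1, Ndufaf8, Cox6b1 and Atp5k then passed as lower. Leaving out mouse 2 or mouse 4 left 7 and 8 falls. When each mouse in turn, the vehicle array of mouse 4 with IL-4 or the control vehicle array of mouse 1 was left out, 11 of the 45 rises and 7 of the 13 falls missed the threshold at least once, and these are named below with the mice concerned. Ndufa1, a small membrane subunit of complex I, missed it without mouse 1, 2, 3, 5 or 6, and Ndufb11 without mouse 6 (adjusted p = 0.088).

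The replicates of these genes lay close together. The median spread between the 3 arrays of a group was 0.127 (SD, log2) for the respiratory genes and 0.412 for all genes. In the 12 pairs of cultures from the same mouse and treatment, 19 genes were higher with IL-4 in every pair and 6 were lower in every pair, against 11.8% and 8.77% of all genes. For 8 genes the lowest of the 12 IL-4 arrays was higher than the highest of the 12 others (Atp5b, Cox6a2, Ndufa13, Ndufaf4, Ndufs7, Ndufv1, Ndufv2 and Uqcrc1), as for 5.68% of all genes, and for Cox6b2 and Cox7a1 they lay below, as for 4.78%.

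**Figure D1:**
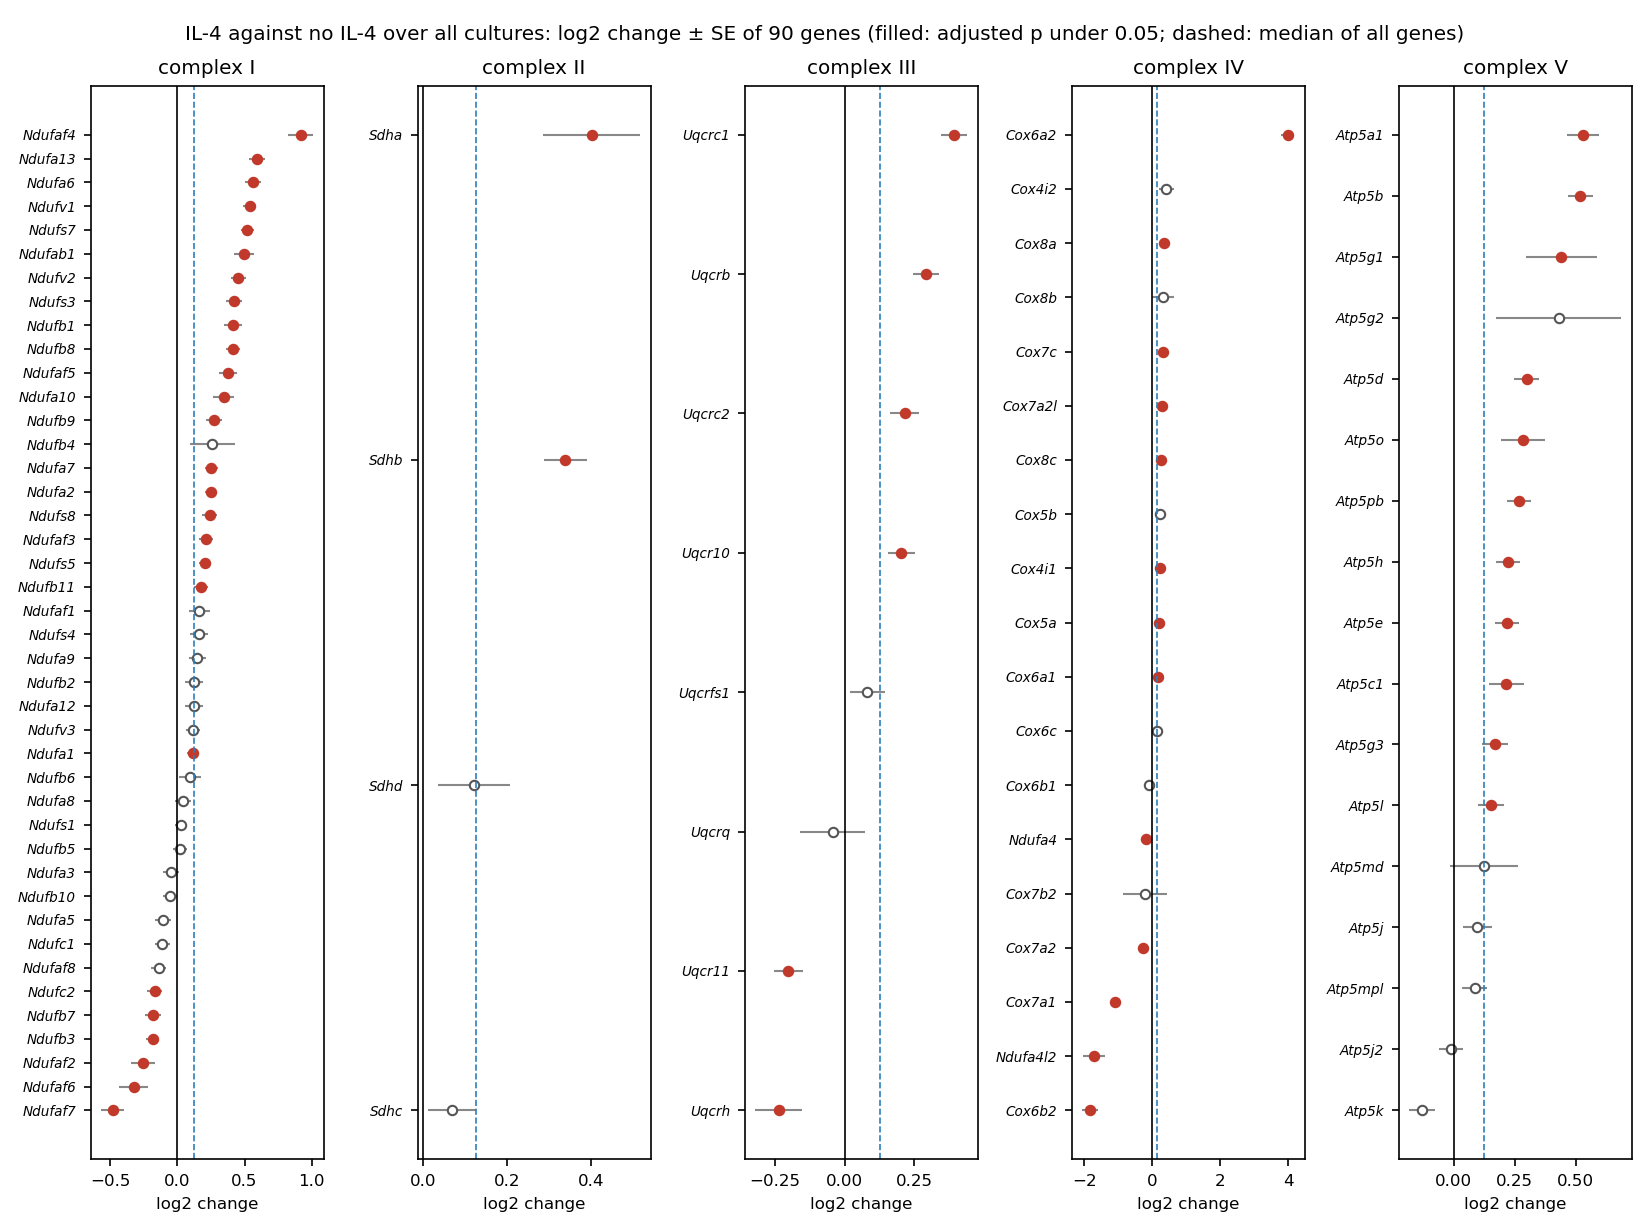
Log2 change with IL-4 over all cultures (x axis, ± SE, 12 arrays against 12) for each of the 90 genes, sorted within each complex; filled points passed at an adjusted p under 0.05 and the dashed line is the median of all genes at 0.13. The x scale differs between panels. Complex IV spans the widest range, from Cox6b2 at -1.82 to Cox6a2 at 3.99, and no ATP synthase gene passed as lower.

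In complex I the core subunits, which carry the electron path, moved most evenly. 5 of the 6 measured rose, with a median log2 change of 0.44. Ndufv1, the flavin-bearing subunit that oxidises NADH, had ratios from 0.766 to 0.921 (median 0.851) without IL-4 and from 1.07 to 1.48 (median 1.25) with it. The ranges did not overlap, and the change was 0.54 ± 0.051 (SE), or 1.45-fold (adjusted p = 5e-08). Ndufs7, which bears the iron-sulfur cluster next to the quinone site, went from 0.724 to 0.987 (median 0.836) up to 1.01 to 1.36 (median 1.22), a change of 0.52 ± 0.050 (adjusted p = 6.7e-08). Its ranges also stayed apart. Ndufv2, the partner of Ndufv1, rose by 0.45, Ndufs3 by 0.42 and Ndufs8 by 0.24 on the log2 scale. The exception was Ndufs1, the large iron-sulfur subunit, at 0.025 ± 0.045 (adjusted p = 0.71), with a value of -0.062 after centring on the median gene and -0.071 after quantile normalization.

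Among the 28 accessory subunits of complex I, 12 rose, 3 fell and 13 did not pass. Their median lay 0.010 above the median gene, but -0.0053 from it after quantile normalization. After centring each array on its median gene, 9 accessory subunits rose and 6 fell, and complex I as a whole went from 20 rises and 6 falls to 17 and 10. Ndufa13 (GRIM-19), an accessory subunit also known from cell death studies, had ratios from 0.728 to 0.978 (median 0.861) without IL-4 and 1.02 to 1.57 (median 1.30) with it. These did not overlap, and the gene rose 1.51-fold (0.59 ± 0.057, adjusted p = 6.8e-08). Ndufa6, an LYR-motif subunit that binds the acyl carrier protein, went from 0.703 to 1.00 (median 0.769) to 0.996 to 1.29 (median 1.16), overlapping slightly at 1.00, and rose 1.48-fold (adjusted p = 2.1e-07). Ndufab1, that acyl carrier protein, rose by 0.50. The 3 accessory genes that fell were Ndufb3, Ndufb7 and Ndufc2, by 0.19, 0.18 and 0.17. Ndufc2 fell through its noisiest probe set (-0.56 ± 0.19). Its other probe sets ran from -0.072 to 0.010 and did not pass, and the most precise one was at 0.010 ± 0.050. Ndufb3 missed the threshold without mouse 2 (adjusted p = 0.051), Ndufb7 without mouse 1, 2, 3, 4 or 5 (0.055 to 0.12) and Ndufc2 without mouse 1, 3, 4 or 6 (0.054 to 0.07).

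The 8 assembly factors of complex I split, with 3 rising and 3 falling. Ndufaf4, needed early in the building of the complex, rose most: 0.567 to 0.911 (median 0.713) without IL-4 and 1.09 to 1.92 (median 1.41) with it, with no overlap, a 1.89-fold rise (0.92 ± 0.093, adjusted p = 1.3e-07). Its promoter, shown above, held the NRF-1 letters. Ndufaf5 and Ndufaf3 rose by 0.38 and 0.21. Ndufaf7, a methyltransferase that acts on a core subunit, went from 0.898 to 1.48 (median 1.18) down to 0.672 to 1.05 (median 0.84), with overlap, a change of -0.48 ± 0.086 (adjusted p = 0.00012). Ndufaf6 and Ndufaf2 were lower by -0.33 (adjusted p = 0.017) and -0.26 (adjusted p = 0.026). The calls of the last pair were lost without mouse 1, 2 or 4, where the adjusted p ran from 0.065 to 0.094 for Ndufaf6 and from 0.087 to 0.21 for Ndufaf2.

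In complex II, Sdha and Sdhb, the catalytic flavoprotein and iron-sulfur subunits of succinate dehydrogenase, rose by 0.40 ± 0.12 (adjusted p = 0.0085) and 0.34 ± 0.051 (adjusted p = 2.1e-05). Sdhb ratios were 0.848 to 1.04 (median 0.915) without IL-4 and 0.953 to 1.37 (median 1.20) with it, overlapping but higher in 12 of 12 pairs. The membrane anchors Sdhc and Sdhd had changes of 0.068 (adjusted p = 0.37) and 0.12 (adjusted p = 0.29) and did not pass, and Sdhc was at -0.019 after centring on the median gene and -0.027 after quantile normalization.

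In complex III, 4 of 8 genes rose and 2 fell. Uqcrc1, a large core protein of the matrix side, had ratios from 0.736 to 0.982 (median 0.856) without IL-4 and 1.02 to 1.24 (median 1.14) with it, with no overlap, and rose by 0.39 ± 0.046 (adjusted p = 9.5e-07). Uqcrc2, the second core protein, Uqcrb and Uqcr10 rose by 0.21, 0.29 and 0.20. The Rieske iron-sulfur protein Uqcrfs1, a catalytic subunit, was at 0.081 (adjusted p = 0.34) and at -0.0062 and -0.013 under centring and quantile normalization, though it passed without mouse 4 (adjusted p = 0.047). Uqcrh, the hinge protein at the cytochrome c1 side, was lower by -0.24 ± 0.084 (adjusted p = 0.029), and Uqcr11 by -0.20 ± 0.051 (adjusted p = 0.0032). Uqcrh lost its call without mouse 2, 3, 4 or 5, with an adjusted p between 0.08 and 0.14, and without the control vehicle array of mouse 1 (0.055), and Uqcr11 missed it without mouse 2 (0.052).

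In complex IV, 8 of 19 genes rose and 5 fell, which became 5 and 6 after centring and 6 and 6 after quantile normalization. Of the 11 ubiquitous subunits, 6 rose, 2 fell and 3 did not pass, and 4 rose and 3 fell after centring. Cox4i1, the ubiquitous form of the regulatory subunit, rose by 0.21 ± 0.047 (adjusted p = 0.00093), Cox5a by 0.20, Cox7c by 0.31 and Cox7a2l by 0.27. Cox7c missed the threshold without mouse 5 (adjusted p = 0.055). Cox5b and Cox6c were at 0.23 (adjusted p = 0.098) and 0.14 (adjusted p = 0.068). Cox5b passed without mouse 5 (0.049), and Cox6c without mouse 4 (0.0029) or without that mouse's IL-4 vehicle array alone (0.0015). The 2 that fell were Cox7a2, the ubiquitous form of subunit 7a, and Ndufa4, once assigned to complex I and now placed in complex IV. Cox7a2 ratios went from 0.994 to 1.28 (median 1.11) down to 0.807 to 1.00 (median 0.947), lower in 12 of 12 pairs with a slight overlap, a change of -0.26 ± 0.052 (adjusted p = 4e-04). Ndufa4 was lower by -0.20 ± 0.050 (adjusted p = 0.003), also in 12 of 12 pairs.

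The largest changes were in the restricted isoforms of complex IV. Cox6a2, the heart and skeletal muscle form of subunit 6a, had ratios between 0.0931 and 0.262 (median 0.160) in the 12 arrays without IL-4 and between 1.70 and 3.57 (median 2.68) in the 12 with it. The groups lay far apart in each genotype and treatment, and the change was 3.99 ± 0.19, or 15.8-fold (adjusted p = 3.5e-12). Its ubiquitous counterpart Cox6a1 changed by 0.15 ± 0.052 (adjusted p = 0.022), a rise that was lost after centring (adjusted p = 0.37) and without mouse 1, 3 or 6 (0.088 to 0.14).

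Cox7a1, the muscle form of subunit 7a, moved the other way. Its ratios were 1.13 to 1.82 (median 1.41) without IL-4 and 0.438 to 0.869 (median 0.659) with it, without overlap, a fall of 2.15-fold (-1.10 ± 0.10, adjusted p = 3e-08). Cox6b2, the testis form of subunit 6b, went from 1.02 to 1.78 (median 1.23) down to 0.0949 to 0.976 (median 0.375), also without overlap, and was 3.53-fold lower (-1.82 ± 0.24, adjusted p = 3.3e-06), while the ubiquitous Cox6b1 was at -0.11 (adjusted p = 0.11). Ndufa4l2, the form that replaces Ndufa4 under hypoxia, was 3.28-fold lower (-1.71 ± 0.32, adjusted p = 0.00022). Its arrays spread widely, from 0.750 to 4.92 (median 2.23) without IL-4 and from 0.378 to 1.61 (median 0.661) with it, and overlapped.

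The other restricted forms gave no clear change. Cox4i2, the lung and hypoxia form of subunit 4, was at 0.41 ± 0.22 (adjusted p = 0.16), Cox8b, the muscle form of subunit 8, at 0.32 ± 0.32 (adjusted p = 0.48), and Cox7b2, a testis form, at -0.21 ± 0.64 (adjusted p = 0.83), whose sign turned without mouse 2 or 5. Cox8c, the testis form of subunit 8, passed at 0.25 ± 0.096 (adjusted p = 0.048) but not with the mouse as a block (adjusted p = 0.052) nor after centring (adjusted p = 0.27), nor without mouse 2, 3, 4 or 5, the IL-4 vehicle array of mouse 4 or the control vehicle array of mouse 1 (0.064 to 0.24). The ubiquitous Cox8a rose by 0.35 ± 0.10 (adjusted p = 0.011), with an adjusted p of 0.057 after centring and of 0.081 without mouse 3. Without mouse 5 the adjusted p of Cox4i2 was 0.02.

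**Figure D2:**
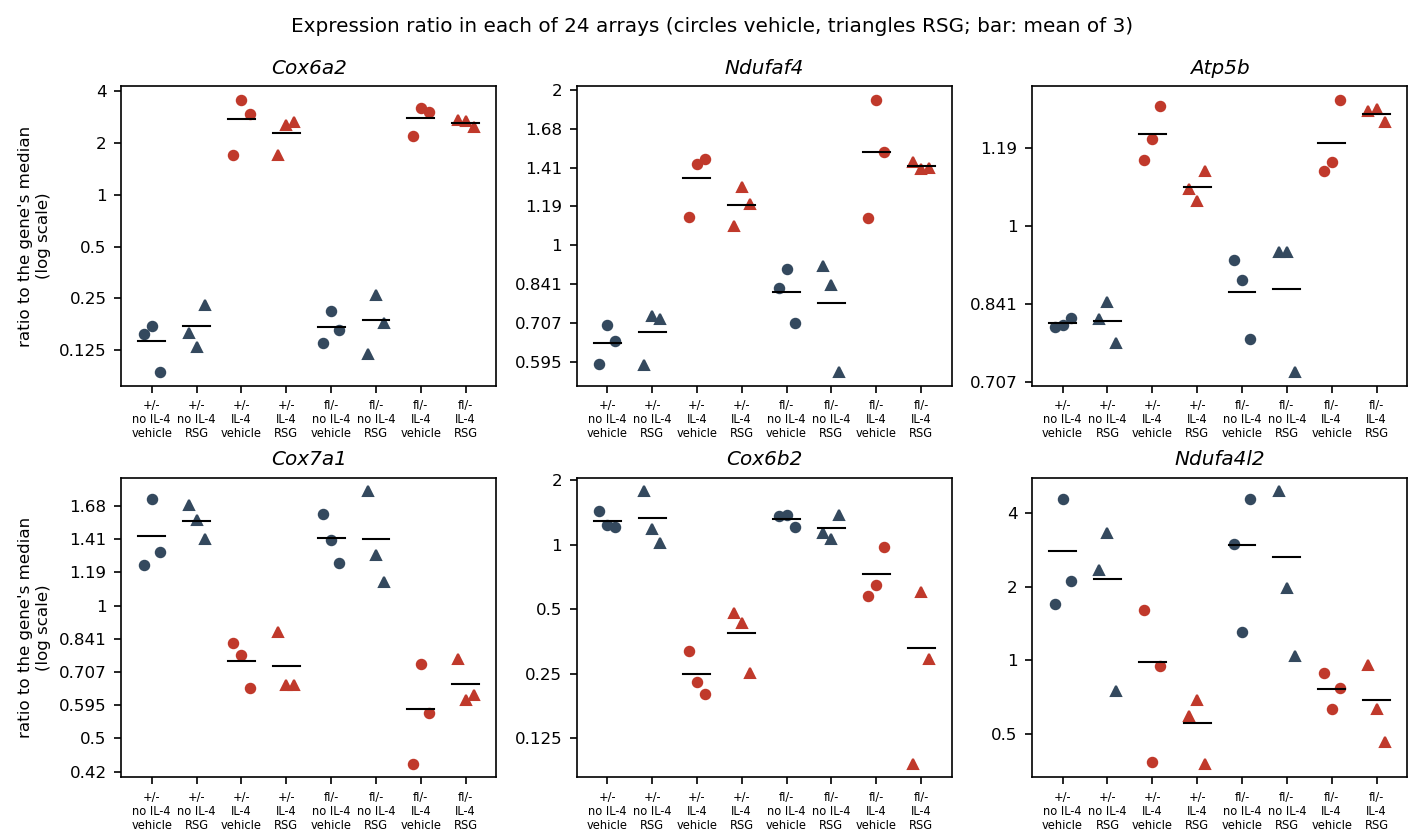
Ratio to the gene's own median (y axis, log scale) in each of the 24 arrays for 6 genes, by genotype, IL-4 and treatment; circles are vehicle, triangles RSG, red points IL-4, and bars the mean of 3 mice. Cox6a2 lies between 0.0931 and 0.262 without IL-4 and between 1.70 and 3.57 with it, and Cox7a1 and Cox6b2 lie lower on every IL-4 array than on any array without IL-4.

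In ATP synthase 11 of 17 genes rose and none fell, while 6 did not pass. After centring on the median gene, 6 rose and 1 fell. All 5 subunits of the F1 head, the soluble catalytic part, rose. Atp5b, the catalytic beta subunit, had ratios from 0.723 to 0.943 (median 0.814) without IL-4 and 1.06 to 1.32 (median 1.18) with it, with no overlap, a change of 0.52 ± 0.053 (1.43-fold, adjusted p = 1.3e-07). Atp5a1, the alpha subunit, went from 0.641 to 0.969 (median 0.790) to 0.956 to 1.31 (median 1.14), overlapping only through the IL-4 vehicle array of mouse 4, and rose by 0.53 ± 0.064 (adjusted p = 1.4e-06). The gamma subunit Atp5c1, the rotating shaft, rose by 0.22 (adjusted p = 0.023, but 0.11 after centring), delta (Atp5d) by 0.30 and epsilon (Atp5e) by 0.22. Without the s_at and x_at probe sets Atp5c1 was at 0.10 (adjusted p = 0.61), and without mouse 2, 3, 5 or 6 its adjusted p ran from 0.05 to 0.12.

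Of the peripheral stalk, which holds the head in place, Atp5pb, Atp5h and Atp5o rose by 0.27, 0.22 and 0.28, and Atp5j was at 0.097 (adjusted p = 0.22). Atp5o missed the threshold without mouse 3, 5 or 6 (adjusted p = 0.062 to 0.12). The rotating c ring is built of copies of a protein that 3 genes encode. Atp5g3 was at 0.17 (adjusted p = 0.015), Atp5g1 at 0.44 ± 0.15 (adjusted p = 0.021) and Atp5g2 at 0.43 ± 0.26 (adjusted p = 0.20). The calls of Atp5g1 and Atp5g3 were lost after centring (adjusted p = 0.065 and 0.21) and without mouse 1 or 3 (0.12 and 0.13 for Atp5g1, 0.09 and 0.07 for Atp5g3), for Atp5g1 also without mouse 5 (0.079) and for Atp5g3 without mouse 6 (0.12). Of the 5 small membrane subunits only Atp5l passed, at 0.15 (adjusted p = 0.03), and it missed the threshold without mouse 1, 2, 3, 5 or 6 (0.072 to 0.17).

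A gene's value is the mean of its probe sets, and 51 of the 90 genes had several. Probe sets of 12 genes differed in sign, and no gene had probe sets called in both directions. Both probe sets of Cox6a2 rose (3.34 ± 0.12 and 4.63 ± 0.33), as did both of Ndufaf4 (0.68 and 1.16), the 3 of Ndufv1 (0.45 to 0.63) and the 3 of Atp5a1 (0.47 to 0.58). Of the c-ring genes, Atp5g1 rose through its noisier probe set (0.91 ± 0.30), while its most precise one was at -0.030 ± 0.070. The most precise probe set of Atp5g2, which did not pass, was at -0.0042 ± 0.054, and Atp5g3 had a single probe set. The 5 probe sets of Ndufab1 ran from -0.19 to 1.09. With the most precise probe set taken for each gene, 47 genes rose and 15 fell, and Cox5b (0.27, adjusted p = 0.00017) and Cox6c (0.13, adjusted p = 0.029) were then among the risers.

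**Figure D3:**
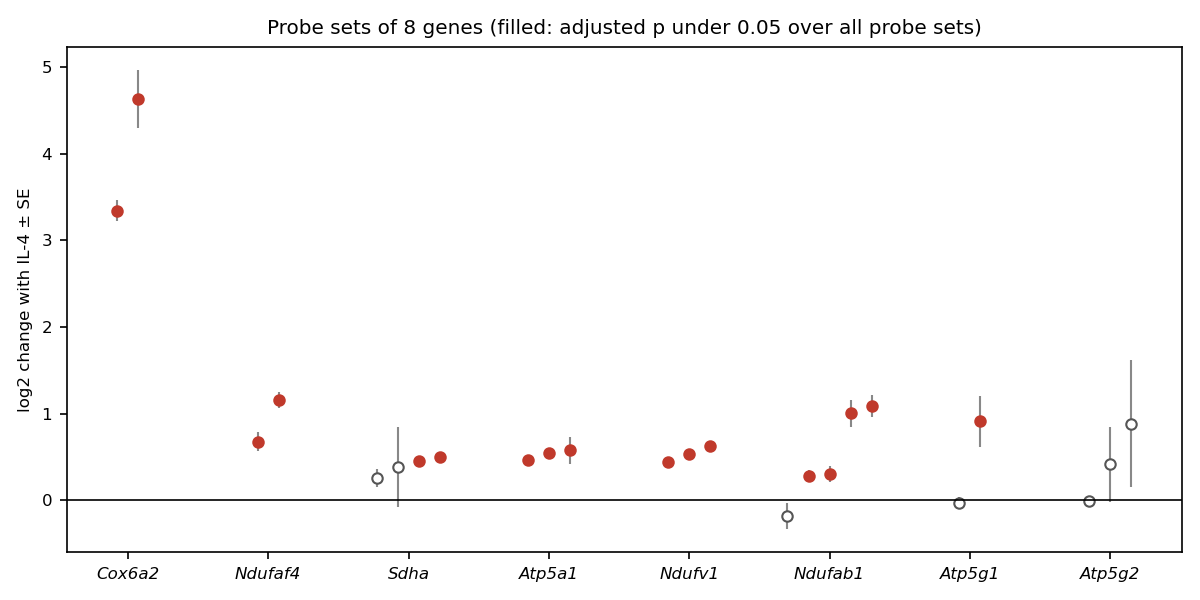
Log2 change with IL-4 (y axis, ± SE) of each probe set of 8 genes; filled points passed at an adjusted p under 0.05. The probe sets of Cox6a2, Ndufaf4, Atp5a1 and Ndufv1 all lie above 0, while the most precise ones of Atp5g1 and Atp5g2 lie at -0.030 and -0.0042.

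The IL-4 changes were read separately in each genotype and treatment, in different arrays and, between genotypes, different mice. With vehicle, 26 genes rose and 2 fell in Pparg+/- cells, where 12.5% of all genes rose and 7.73% fell. The other genotype, Pparg fl/-, had 21 rises and 5 falls (13.1% and 8.93% of all genes). All 26 risers of the Pparg+/- mice were higher in the Pparg fl/- mice too, and 18 of the 26 passed there, as against 98.2% of the same sign and 74.9% passed for all genes that rose in Pparg+/- cells. With RSG there were 12 rises and 2 falls in Pparg+/- cells (10.4% and 7.26% of all genes) against 20 and 4 in Pparg fl/- cells (11.5% and 8.26%). 9 genes passed as higher in all 4 comparisons, namely Ndufs7, Ndufv1, Ndufv2, Ndufa6, Ndufb8, Ndufaf4, Uqcrb, Cox6a2 and Atp5b, and Cox7a1 passed as lower in all 4. This was 10% and 1.11% of the genes against 6.79% and 4.77% of all genes.

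Counted in either direction, 20.3% and 22% of all genes passed with vehicle and 17.6% and 19.7% with RSG (Pparg+/-, then Pparg fl/-), and 14.6%, 16.3%, 12.9% and 14.6% did so with a change of at least 1.5-fold, where 10, 7, 5 and 7 respiratory genes did. The respiratory counts moved when a mouse was left out, which also leaves fewer arrays. Shares of all genes without a mouse are not given for these comparisons, and the part of array number was not tested. The 28 calls in Pparg+/- cells with vehicle became 16, 12 and 14 without mouse 1, 2 or 3, and the 14 with RSG became 4, 8 and 4. The 26 calls in Pparg fl/- cells with vehicle became 13 and 12 without mouse 5 or 6, and the 24 with RSG became 12 and 15. Some other omissions raised the counts, as the ranges given under processing show. With only the arrays of the 2 groups compared, Pparg fl/- cells with vehicle gave 3 calls, and the methods' t-test gave 3 (Benjamini-Hochberg adjusted). By that t-test 6.34% of all genes passed in these cells.

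Cox6a2 was 19.2-fold higher with IL-4 in Pparg+/- cells and 16.5-fold in Pparg fl/- cells with vehicle, and 13.5-fold and 14.8-fold with RSG. Cox7a1 was 1.90-fold and 2.48-fold lower with vehicle and 2.15-fold and 2.10-fold lower with RSG. Cox6b2 was less even. It was 5.28-fold lower in Pparg+/- cells with vehicle (adjusted p = 0.001), 1.84-fold in Pparg fl/- cells with vehicle (adjusted p = 0.22), and 3.45-fold and 4.65-fold lower with RSG. No gene of the 90 had an IL-4 response that differed between genotypes (limma interaction, lowest adjusted p = 0.8, with 1 gene at an unadjusted p under 0.05), and 0.011% of all genes did. Of all genes, 5.52% had an unadjusted p under 0.05.

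**Figure D4:**
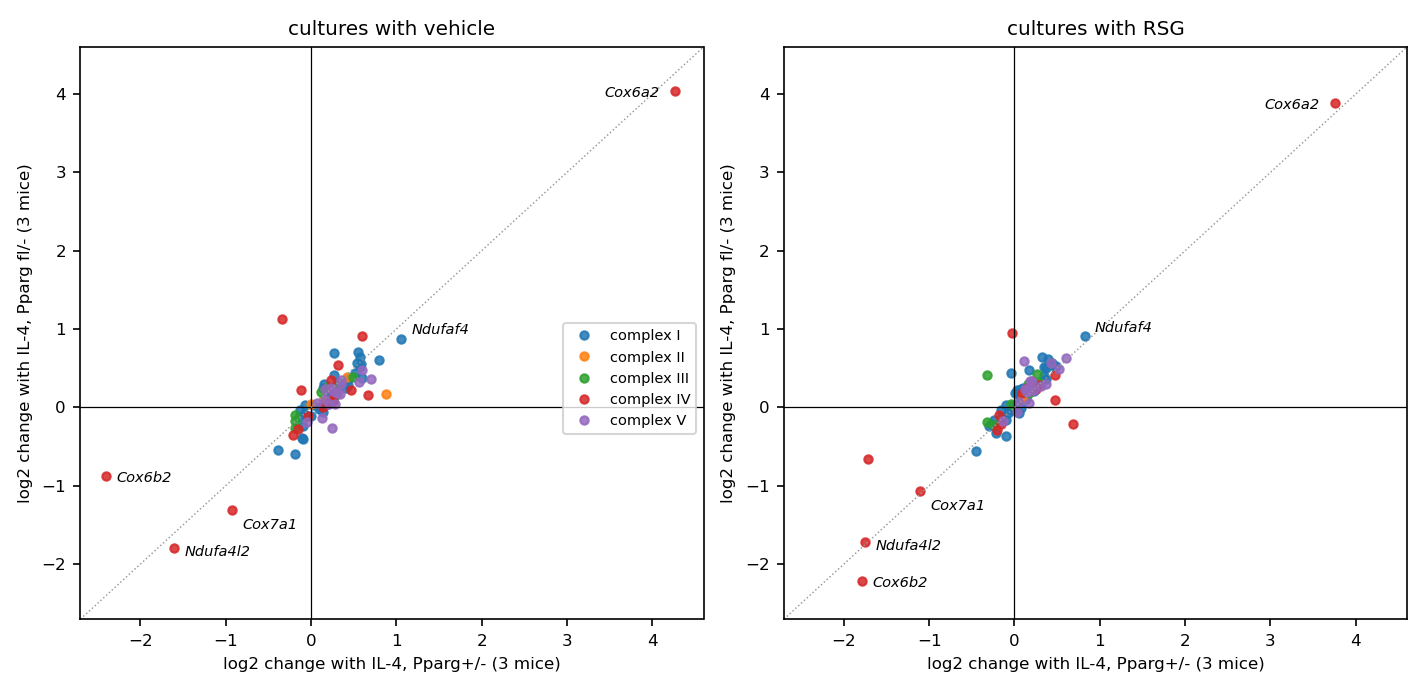
Log2 change with IL-4 in Pparg+/- cells (x axis) and in Pparg fl/- cells (y axis), 3 mice each, for the 90 genes, with vehicle on the left and RSG on the right; colours mark the complex and the dotted line equal changes. Cox6a2 stands at 4.27 and 4.04 with vehicle and at 3.75 and 3.89 with RSG, and Cox7a1 is below 0 in both genotypes.

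Other mitochondrial genes were read in the same comparison, in which 24.6% of all genes rose and 15.4% fell. Of 41 measured assembly factors outside the rule, 18 rose and 6 fell, led by Cox17, a copper chaperone (1.92-fold), Sco2, which delivers copper to complex IV (1.86-fold), and Higd1a (1.71-fold). Of 19 genes of ubiquinone synthesis and electron transfer, 10 rose and 2 fell, with Coq10b at 2.36-fold, cytochrome c (Cycs) at 1.55-fold and cytochrome c1 (Cyc1) at 1.54-fold higher. Of 20 import genes, 11 rose and none fell, led by the matrix chaperone Hspa9 (2.54-fold), Timm8a1 (2.03-fold) and Tomm70a (1.83-fold). Of 10 carriers, 5 rose and none fell, including the channels Vdac3 (1.76-fold) and Vdac2 (1.25-fold) and the ADP/ATP carrier Slc25a5 (1.45-fold).

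Regulators of mitochondrial biogenesis rose in 11 of 23 cases and fell in 1. The coactivator Ppargc1b had ratios of 0.466 to 0.653 without IL-4 and 1.35 to 2.25 with it, which did not overlap, and was 3.21-fold higher (adjusted p = 3.9e-13). Pparg was 2.82-fold and Ppargc1a 1.78-fold higher. In the citric acid cycle and its feeders, 9 of 19 rose and 3 fell, with Suclg2 (a succinyl-CoA ligase subunit) and Pcx (pyruvate carboxylase) 2.28-fold and 2.19-fold lower and Pdha1 (pyruvate dehydrogenase) 1.46-fold higher. Of 76 mitochondrial ribosomal protein genes, 31 rose and 12 fell, with a median 0.0051 above the median gene. The largest rises were those of Mrps28 (1.91-fold), Mrps18b (1.70-fold) and Mrps26 (1.64-fold).

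Markers of other cells and of proliferation moved with IL-4 in the same arrays, and in these bulk samples fewer cells of a type and less RNA per cell cannot be told apart. Cell cycle genes were lower in 18 of 19 cases, with an array mean ratio of 1.37 to 4.10 without IL-4 and 0.162 to 0.279 with it (Birc5 90.9-fold, Tk1 69.0-fold and Mki67 66.3-fold lower). Neutrophil genes were lower in 7 of 8 cases (array means 1.38 to 3.06 and 0.0650 to 0.125, S100a9 268-fold, Lcn2 112-fold and Ngp 72.2-fold) and stromal genes in 7 of 8 (1.13 to 4.71 and 0.248 to 0.597, Col1a1 17.5-fold, Col1a2 14.2-fold and Col3a1 11.0-fold). Of 9 macrophage genes 5 were lower (Cx3cr1 4.11-fold, Fcgr1 3.16-fold and Cd14 2.48-fold) and 3 higher (array means 1.07 to 1.72 and 0.644 to 1.13). Of 6 dendritic cell genes 3 were higher (0.435 to 0.980 and 0.879 to 1.56), namely Itgax 6.03-fold, Zbtb46 3.64-fold and Flt3 2.14-fold. B cell genes were lower in 2 of 5 (0.865 to 1.59 and 0.281 to 0.761, Cd79b and Ighm), T and NK cell genes in 1 of 5 (0.464 to 1.30 and 0.627 to 1.14, Cd4), and erythroid genes higher in 2 of 3 (0.283 to 0.923 and 0.409 to 1.504, Alas2 and Klf1). The part of these cells in the changes of the respiratory genes was not tested.

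The muscle isoforms were set beside other muscle and fat cell genes. Of 7 measured, Actn2 was 2.82-fold higher and Myl2 3.92-fold lower with IL-4, and the other 5 did not pass. The array mean of the list was 0.543 to 1.02 without IL-4 and 0.509 to 0.995 with it, where Cox6a2 ratios rose from at most 0.262 to at least 1.70.

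RSG changed no respiratory gene past the threshold. In IL-4-treated Pparg+/- cells, where 0.423% of all genes passed, 0 of 90 did by limma (lowest adjusted p = 0.43, with 5 at an unadjusted p under 0.05), and 0 by the methods' t-test (13 unadjusted). Of all genes in these cells, 7.65% had an unadjusted p under 0.05 by limma, and 1468 of 18193 by the t-test. Angptl4, a known PPAR target, was 8.89-fold higher there (adjusted p = 0.0062), and 13.2-fold higher in IL-4-treated Pparg fl/- cells (adjusted p = 0.019). The respiratory genes were nevertheless mostly on 1 side: 75 of 90 lay below the median gene, with a median log2 change of -0.096 against -0.017 for all genes. In complex I this held for 37 of 42, in complex II for 3 of 4, in complex III for 7 of 8, in complex IV for 14 of 19 and in ATP synthase for 14 of 17. Genes of 1 array move together, so these are no independent counts.

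Seen by array, the median respiratory gene stood 0.15, 0.23 and 0.080 (log2) above the array's median gene in mice 1, 2 and 3 with IL-4 and vehicle, and 0.048, 0.0019 and 0.043 above it with IL-4 and RSG. The 2 groups of 3 did not overlap. The second lay within the range of the cultures without IL-4, -0.052 to 0.11 in this genotype, and so did mouse 3 with IL-4 and vehicle. In Pparg fl/- cells the median respiratory gene stood at 0.068, 0.085 and 0.17 with IL-4 and vehicle and at 0.091, 0.14 and 0.12 with RSG, which overlap. Without IL-4 this genotype ran from -0.021 to 0.095. That range also held mice 4 and 5 with IL-4 and vehicle and mouse 4 with IL-4 and RSG. Pparg itself had ratios of 2.02, 1.71 and 1.46 in the IL-4-treated Pparg+/- cells with vehicle and 1.09, 0.910 and 0.895 with RSG (-0.83 ± 0.26, adjusted p = 0.27). The 5 respiratory genes at an unadjusted p under 0.05 were Ndufb2 (-0.38 ± 0.14), Ndufaf5 (-0.31 ± 0.13), Ndufa13 (-0.27 ± 0.11), Sdhb (-0.25 ± 0.10) and Ndufs5 (-0.21 ± 0.096).

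The difference of the RSG change between genotypes with IL-4 passed for 0 of 90 genes by limma (lowest adjusted p = 0.9, 0% of all genes called), with 74 of 90 above the median gene. At an unadjusted p under 0.05 were 3, against 4.58% of all genes. The difference of the RSG change between cells with and without IL-4 in Pparg+/- mice passed for 0 of 90 (lowest adjusted p = 0.87, 0.0055% of all genes called), with 71 of 90 below the median gene. Unadjusted, 2 passed, against 4.85% of all genes. These comparisons share arrays with the one above. Without IL-4, RSG gave 0 calls by limma in Pparg+/- cells (0.022% of all genes, 1 unadjusted) and 0 in Pparg fl/- cells (0% of all genes, 0 unadjusted), and medians of -0.0088 and 0.0055. Unadjusted, 5.45% and 4.08% of all genes had a p under 0.05 there. In IL-4-treated Pparg fl/- cells 0 passed by limma (0.0055% of all genes), with 35 of 90 below the median gene, and unadjusted 4 did, against 4.69% of all genes. The methods' t-test likewise gave 0 adjusted calls in these 3 comparisons, with 2, 0 and 2 unadjusted, against 1215, 707 and 627 of all 18193 genes. In IL-4-treated Pparg fl/- cells Cox6b2 had the largest change with RSG (-1.48 ± 0.47, adjusted p = 0.81), with ratios of 0.577, 0.647 and 0.976 with vehicle and 0.0949, 0.603 and 0.292 with RSG.

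**Figure D5:**
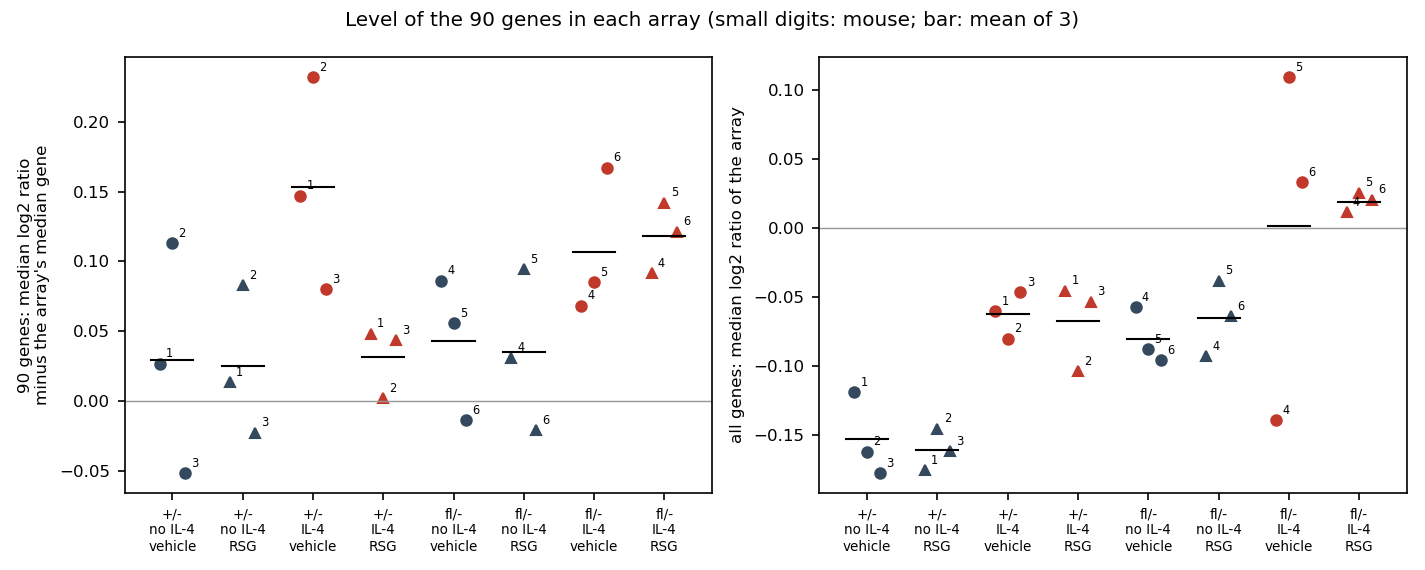
Left, the median log2 ratio of the 90 genes minus that of all genes on the same array (y axis), and right, the median log2 ratio of all genes, for the 24 arrays by group; small digits are mice and bars the mean of 3. IL-4-treated Pparg+/- cells lie at 0.080 to 0.23 with vehicle and at 0.0019 to 0.048 with RSG, and the array of mouse 4 with IL-4 and vehicle lies lowest of the IL-4 arrays on the right.

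The share of respiratory genes that differed between genotypes was close to that of all genes. Over all 4 culture conditions 5 of 90 genes were higher in Pparg fl/- cells and none lower, where 5.97% of all genes were higher and 0.621% lower (6.6% in either direction, and 0.896% with at least 1.5-fold, where no respiratory gene passed). The median change was 0.098 for these genes and 0.094 for all genes. The 5 were Ndufs1 (0.22 ± 0.045, adjusted p = 0.0092), Ndufaf3 (0.21, adjusted p = 0.028), Ndufa8 (0.20, adjusted p = 0.044), the complex III subunit Uqcr10 (0.18, adjusted p = 0.039) and Atp5e (0.17, adjusted p = 0.046). With the mouse as a random block, which counts the 4 cultures of a mouse as related, Ndufs1 (adjusted p = 0.014) and Ndufaf3 (adjusted p = 0.04) remained and 3 did not. After centring each array on its median gene none passed, with Ndufs1 at 0.14 (adjusted p = 0.10). Ndufs1 ratios ran from 0.808 to 1.01 in the 12 Pparg+/- arrays and from 0.999 to 1.14 in the 12 Pparg fl/- arrays. The 5 calls became 0, 0, 1, 12, 0 and 2 without mouse 1, 2, 3, 4, 5 or 6, 22 without the vehicle array of mouse 4 with IL-4, and 3 without the control vehicle array of mouse 1.

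Within single conditions no gene passed. Without IL-4 and with vehicle, 0 of 90 differed between genotypes by limma (4 at an unadjusted p under 0.05, 0% of all genes called), and with IL-4 and vehicle 0 of 90 (2 unadjusted, 0% of all genes). The methods' t-test gave 0 adjusted calls in each (5 and 3 unadjusted, against 1967 and 861 of all 18193 genes).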

How the data were processed

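RNA of 24 macrophage cultures was measured on Affymetrix arrays. The authors computed GC-RMA signals in GeneSpring 7.3 (GCOS is also named in the submitters' processing notes), and the deposited ratio divides each signal by the median of its array and by the median of its probe set over the arrays. The further division by the vehicle control that the methods describe is not applied in the table. Scan dates are not given in the sources used here.

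From the 45101 rows, 64 control probe sets were left out, 34945 probe sets with 1 gene symbol were used, 932 with several and 9160 with none were not. Symbols came from GEO's array annotation, updated by gene ID through RefSeq. Ratios were taken to log2 with a floor of 0.0100051, averaged per gene (18193 genes) and fitted with limma 3.58.1 in R 4.3.3 (8 group means, moderated two-sided tests with a variance trend, Benjamini-Hochberg over all genes). A gene rose or fell at an adjusted p under 0.05. In all 15 comparisons were tested. The steps were tested on simulated data. The number that opens each sample title was read as a mouse that gave 4 cultures, and it pairs the cultures. The titles do not spell this out. Over all genes, deviations from the group means correlated between cultures of 1 mouse with a median of 0.0132 (-0.0501 to 0.0565, 36 pairs), and none was over 0.1. Over the respiratory genes alone the median was 0.045 (-0.64 to 0.70), with 15 of 36 pairs over 0.1. Between different mice of a genotype these genes gave a median of -0.0062 (-0.77 to 0.76), with 31 of 72 pairs over 0.1. The mouse as a block, other scalings, probe set choices, tests and left-out mice were the alternatives, and leaving out the control vehicle array of mouse 1 was added after the data were seen. The genes and lists were chosen with earlier results of these data known. The named genes were Pparg, core subunits, isoform families, the 8 largest called rises and falls, called genes of other comparisons, 3 called genes per list and 5 of the most similar pattern. Promoter letters are from RefSeq, GRCm38.p6, and 16 genes have none there.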

Additional observations from a re-analysis of the deposited data

How the results depend on the processing

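21 alternatives were run, and 930 recomputed values of 49 named genes with IL-4 over all cultures gave 823 with the same direction and side of the threshold, 82 that lost a call, 12 that gained one and 13 of the opposite sign; 32 rises and 6 falls passed under each of the 18 alternatives of that comparison other than the added 1.5-fold. Opposite signs came with centring and quantile normalization for Ndufa8 (-0.047 and -0.050), Ndufs1 (-0.062 and -0.071), Sdhc (-0.019 and -0.027) and Uqcrfs1 (-0.0062 and -0.013), with the most precise probe set for Atp5g1 (-0.030) and Atp5g2 (-0.0042), without mouse 2 or 5 for Cox7b2 (0.011 and 0.11) and without mouse 5 for Ndufs1 (-0.0010). Leaving out single mice or arrays gave -0.67 to 0.11 for Cox7b2 and -0.0010 to 0.048 for Ndufs1. Requiring 1.5-fold left 3 rises and 3 falls over all cultures, 10 and 7 calls for IL-4 with vehicle and 5 and 7 with RSG (Pparg+/-, then Pparg fl/-), and 0 for genotype. The methods' t-test gave 16, 3 and 12 calls for IL-4 in Pparg+/- vehicle, Pparg fl/- vehicle and Pparg fl/- RSG cells, where 12.6%, 6.34% and 9.51% of all genes passed. Only the groups compared in the fit gave 16 and 3 with vehicle and 8 and 9 with RSG, and the share of all genes under that fit is not given here. At the methods' threshold of 1.5-fold and an adjusted p of 0.05 the t-test gave 8, 3, 3 and 3 calls for IL-4 in the 4 conditions. Of all 18193 genes, 1620 and 1076 passed so with vehicle and 1733 and 1283 with RSG (Pparg+/-, then Pparg fl/-). For IL-4-regulated genes of these mice the paper's figure legend gives a higher fold threshold, which was not applied here. The most precise probe set gave 22 calls for IL-4 in Pparg+/- cells with RSG and 16 for genotype. Genotype gave 0 calls with centring and with quantile normalization, and 2 without a variance trend. With the mouse as a random replicate block genotype gave 2 calls. As a fixed block the mouse changed the pooled IL-4 call of Ndufa1 and Cox8c to not passed, and the random block added Atp5k, with 43 to 45 rises and 13 to 14 falls. In single conditions the blocks moved no count by over 1.5-fold. Leaving out single mice or arrays gave 36 to 52 rises and 7 to 14 falls over all cultures, 12 to 32 calls for IL-4 in Pparg+/- and 12 to 33 in Pparg fl/- cells with vehicle, 4 to 20 and 12 to 29 with RSG, and 0 to 22 for genotype. The cause of these differences was not tested. Interaction and RSG counts stayed at 0 under every alternative run. The number of arrays limits the precision.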

Other observations

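Genes outside the rule were ranked by how closely their 8 group means followed the mean of the 90 respiratory genes. The closest were Psmd8, a proteasome subunit (Pearson r = 0.995), Coq7, a hydroxylase of ubiquinone synthesis (0.995), Smdt1, a regulator of the mitochondrial calcium uniporter (0.995), Erp29, a chaperone of the endoplasmic reticulum (0.991), and Rwdd4a (0.991). These are the top of 18193 genes over 8 points that share arrays, given as a description, and each rose with IL-4 over all cultures, by 0.30, 0.44, 0.32, 0.28 and 0.33 (log2).

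Ranked the same way against Cox6a2, the closest were Cask (r = 1.000), Ptpn3, Hsph1, Pam16 and Flrt2 (0.999, 0.998, 0.998 and 0.998), with log2 changes of 0.87, 2.19, 2.47, 0.67 and 3.13 with IL-4. In the RefSeq gene order of GRCm38.p6, used only for neighbourhood, Cox6a2 lies near Itgax, the integrin CD11c, which was 6.03-fold higher with IL-4 (adjusted p = 3.2e-11, limma). 4931431B13Rik, between them in this order of measured genes, was 2.12-fold higher, 9130023H24Rik on the other side 1.34-fold higher, and Armc5 was at 0.0039 (adjusted p = 0.98). The measured neighbours of Cox7a1 (Gm5113, Capns1) were at 0.12 (adjusted p = 0.72) and 0.16 (adjusted p = 0.011), those of Ndufa4l2 (Stac3, Shmt2) at 0.51 (adjusted p = 0.47) and 0.42 (adjusted p = 0.013), and those of Cox6b2 (Kmt5c, Il11) at -0.17 and -0.69 (adjusted p = 0.13 and 0.093).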
